A study of Mus musculus with 2 samples.

Results

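Resident alveolar macrophages are the phagocytes that live on the airspace surface of the lung, where they take up inhaled particles and spent surfactant. The 9 genes described here (Siglecf, Marco, Krt79, Fabp1, Plet1, Atp6v0d2, Itgax, Mrc1 and Ear2) were chosen as markers of these cells that are not shared with fat, out of 20878 genes that could be named on the arrays. They are read by 12 of 39429 probes, with 2 probes each for Siglecf, Plet1 and Atp6v0d2 and 1 for each of the other 6 genes. Expression was measured in whole lung of 6-week-old mice labelled male, 14 days after bleomycin, instilled into the trachea at 1.25 mg/kg. The pair consists of 1 array for the C57BL6/N strain itself and 1 for transgenic animals of that strain that overexpress heat shock protein 27 (HSP27, the product of Hspb1). No array of untreated lung was analysed here. The labels used here do not give the promoter or species of the transgene, or say whether a sample was 1 animal or a pool.

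Alveolar macrophages arise from fetal monocytes and keep their identity through signals from the alveolar epithelium. Granulocyte-macrophage colony-stimulating factor (GM-CSF) and TGF-beta induce the nuclear receptor PPAR-gamma, which drives the genes of lipid handling in these cells. After bleomycin some of the resident cells are lost, and macrophages derived from blood monocytes enter the airspace and take on part of the resident programme. Siglecf and Mrc1 are surface receptors by which these populations are often told apart, with the recruited cells low in Siglecf at first.

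Signals below are the background-subtracted processed signals of an array. A log2 difference is the transgenic minus the C57BL6/N value after each array's 75th percentile was subtracted on the log2 scale. The labels were checked first. Hspb1, the gene of the transgene, read 41040 in the C57BL6/N lung and 53554 in the transgenic lung, a scaled log2 difference of 0.24. Whether its mouse probe reports the transgene was not tested. All 9 measured markers of lung tissue were well above background on both arrays, with a median log2 difference of -0.43. Of these, 2 were at least 1.5-fold lower in the transgenic lung, Cldn5 at -1.02 and Hopx at -0.63, and 0 were higher. Surfactant protein C (Sftpc) was at -0.40. Although both samples were labelled male, the probes of Xist, the RNA of the inactive X chromosome, averaged 426 in the C57BL6/N lung but did not rise well above background in the transgenic lung. The Y-linked Ddx3y, Eif2s3y and Uty were well above background on both arrays, at 508, 800 and 17.1 in the C57BL6/N lung. Kdm5d, also Y-linked, was well above background in the transgenic lung alone (3.81 in the C57BL6/N and 13.6 in the transgenic lung). Whether the C57BL6/N sample held RNA of both sexes was not tested. Ddx3y, Eif2s3y and Uty were higher on the transgenic array by 1.91 to 2.11. Markers of other tissues were higher on that array as well. Of 8 measured cardiac muscle markers 8 were at least 1.5-fold higher (median 3.84), of 5 fat cell markers 5 (median 5.27) and of 7 basal and stratified epithelium markers 6 (median 1.43). The sizes depended on the processing. Under the alternatives the cardiac median ran from 3.18 to 4.27, and the fat median from 2.07, where a stricter filter left 2 fat markers, to 5.37. In units of the array's 75th percentile, their summed signals were 4.98 in the C57BL6/N lung and 39.4 in the transgenic lung for cardiac muscle, 0.589 and 27.2 for fat, and 3.85 and 7.50 for stratified epithelium. Trp63, 1 of the 6 higher epithelium markers by the mean of its probes, had probes that disagreed in sign (-0.23 and 2.22). Its brighter probe read 3758 in the C57BL6/N lung and 3563 in the transgenic lung, the highest stratified epithelium signal on each array. On the C57BL6/N array the fat markers Adipoq, Plin1 and Ucp1, the cardiac Sln and the keratins Krt17 and Krt1 were not well above background. The sex-linked and tissue differences lie between the same 2 arrays as every difference below, and their part in it was not tested.

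Of the 9 genes, 4 had lower signal in the transgenic lung and 5 differed by less than 1.5-fold. Krt79 was 3.92-fold lower, Fabp1 2.66-fold, Siglecf 1.78-fold and Marco 1.72-fold. Itgax, Plet1, Atp6v0d2, Mrc1 and Ear2 had log2 differences from 0.12 to 0.41. No member was at least 1.5-fold higher. In these bulk samples, fewer cells of a type and less RNA per cell cannot be told apart.

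The share of members that were at least 1.5-fold lower, 44.4%, stood beside 8.31% of the 15495 genes measured on both arrays. At 2-fold lower there were 2 members (22.2%) beside 1.87% of all genes. Upward there were 0 members at 1.5-fold beside 10.2% of all genes, and 0 at 2-fold beside 3.81%. The median log2 difference of the members was 0.12, against -0.04 over all genes, while their mean was -0.42. The median and mean differ in sign because the members fall into 4 low values and 5 values slightly above 0, with a gap of 0.91 between the highest of the low ones (Marco) and the lowest of the others (Itgax). With 1 array per group there is no spread between animals, so none of these differences could be tested. The only error available was technical, the SD of a log2 difference between single spots of probes printed in 10 spots. It was 0.17, 0.09 and 0.08 in the dimmest, middle and brightest of 3 equal groups of such probes. As it comes from repeat spots within each array, it leaves out differences between the arrays in RNA preparation, labelling and hybridization. It also says nothing of variation between mice.

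**Figure D1:**
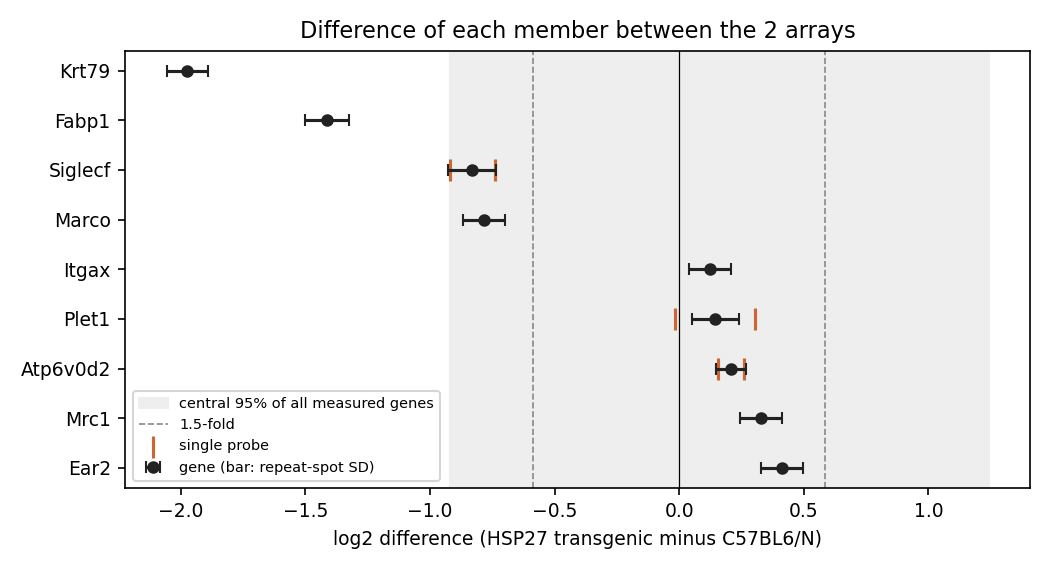
Log2 difference (HSP27 transgenic minus C57BL6/N, 1 array each) of each of the 9 genes, with the technical repeat-spot SD as bars, single probes as ticks where a gene has 2, dashed lines at 1.5-fold and grey for the central 95% of all measured genes (-0.92 to 1.24). Krt79 and Fabp1 lie outside the grey band, Siglecf and Marco inside it but past 1.5-fold, and the other 5 genes between 0.12 and 0.41.

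The promoters of the 4 lower genes are shown because these genes moved the same way. Each window holds 250 bases before and 50 after the RefSeq start in GRCm38.p6, and capitals mark GAGGAA on either strand, the purine-rich core bound by PU.1, the factor that macrophages require. The windows are chr15:101940275-101940574 on the minus strand for Krt79, chr6:71199629-71199928 on the plus strand for Fabp1, chr7:43351091-43351390 on the plus strand for Siglecf and chr1:120504975-120505274 on the minus strand for Marco.
Krt79: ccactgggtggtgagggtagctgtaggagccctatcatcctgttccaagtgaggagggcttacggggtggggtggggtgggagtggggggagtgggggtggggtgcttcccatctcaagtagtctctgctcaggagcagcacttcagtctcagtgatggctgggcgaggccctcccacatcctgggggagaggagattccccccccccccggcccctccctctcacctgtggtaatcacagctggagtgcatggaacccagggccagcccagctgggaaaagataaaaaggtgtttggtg
Fabp1: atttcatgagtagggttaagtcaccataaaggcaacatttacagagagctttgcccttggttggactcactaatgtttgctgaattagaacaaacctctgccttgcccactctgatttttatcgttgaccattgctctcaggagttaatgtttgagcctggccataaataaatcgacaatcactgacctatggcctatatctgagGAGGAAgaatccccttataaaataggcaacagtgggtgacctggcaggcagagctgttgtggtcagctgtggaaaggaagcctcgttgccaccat
Siglecf: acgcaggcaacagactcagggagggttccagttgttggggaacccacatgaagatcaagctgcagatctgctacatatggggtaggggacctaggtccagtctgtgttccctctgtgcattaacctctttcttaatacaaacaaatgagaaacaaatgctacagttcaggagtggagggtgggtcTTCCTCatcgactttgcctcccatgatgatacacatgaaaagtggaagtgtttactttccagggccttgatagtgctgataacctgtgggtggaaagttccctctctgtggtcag
Marco: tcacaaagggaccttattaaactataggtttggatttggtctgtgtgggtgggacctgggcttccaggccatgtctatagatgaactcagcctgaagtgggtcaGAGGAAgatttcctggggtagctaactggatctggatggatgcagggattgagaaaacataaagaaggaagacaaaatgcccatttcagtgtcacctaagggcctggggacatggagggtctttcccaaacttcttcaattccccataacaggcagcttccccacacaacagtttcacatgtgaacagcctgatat
The core occurred 1 time each in the windows of Fabp1, Siglecf (as TTCCTC, its reverse complement) and Marco, at 45, 65 and 146 bases before the start, and not in that of Krt79. Of the 8 members with a window in the table, 4 held it, the fourth being Mrc1 with 3 occurrences, beside 28.3% of all 32851 windows. Mrc1 was not among the lower genes. A match of these letters is a description of the window, and no match says only that they are not in it. Atp6v0d2 had no entry.

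Among the members on the cell surface, Siglecf and Marco were at least 1.5-fold lower, and none was at least 1.5-fold higher. Siglecf encodes a sialic acid binding lectin with inhibitory motifs that marks alveolar macrophages and eosinophils in the mouse. Its brighter probe read 1925 in the C57BL6/N lung and 1128 in the transgenic lung, and its dimmer probe 75.7 and 50.2. Both probes were thus lower in the transgenic lung, by log2 differences of -0.92 and -0.74, and the gene was at -0.83 with a technical SD of 0.10. Of all measured genes, 3.47% had a lower value. Marco is a scavenger receptor for bacteria and inhaled particles. It read 12977 and 8350, a log2 difference of -0.78 with a technical SD of 0.08, and 4.13% of genes were lower. Mrc1, the mannose receptor, binds glycans of microbes and clears glycoproteins. It went the other way by less than 1.5-fold and read 7003 and 9747 (log2 difference 0.33, technical SD 0.08). Itgax, the CD11c integrin chain that pairs with the beta-2 chain on alveolar macrophages and dendritic cells, read 12844 and 15516. After scaling that was a log2 difference of 0.12, 1.49 times its technical SD and smaller than those of the other receptors. Plet1, a glycolipid-anchored surface protein, read 11333 and 12431 at its brighter probe and 263 and 360 at its dimmer one. Its probes disagreed in sign, at -0.01 and 0.30, with a mean of 0.14, so no direction is given for it.

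**Figure D2:**
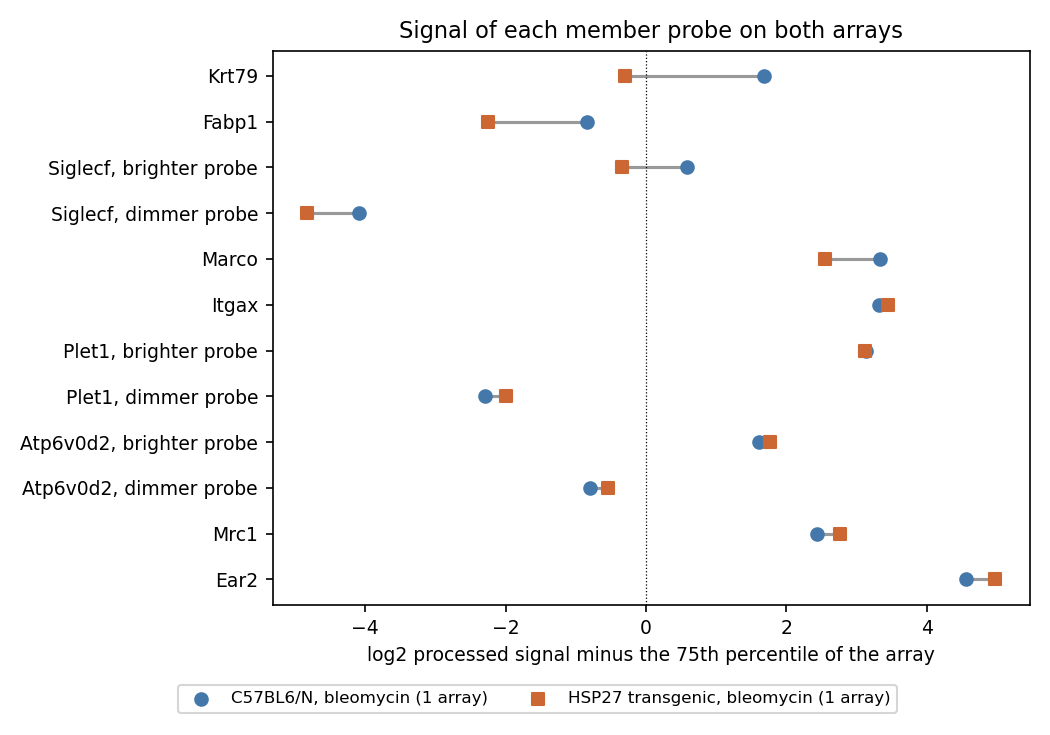
Scaled log2 signal (log2 processed signal minus the array's 75th percentile) of the 12 member probes on the C57BL6/N array (circles) and the HSP27 transgenic array (squares), with 1 array per group. Krt79, Fabp1, Marco and both Siglecf probes have the circle well to the right of the square, and the remaining pairs lie within 0.41 of each other.

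The intracellular and secreted members held both the lowest and the highest values. Krt79 is a type II keratin known from sebaceous glands and hair follicles that is also part of the transcript signature of mouse alveolar macrophages. Its signal was 4114 in the C57BL6/N lung against 1162 in the transgenic lung. The log2 difference was -1.97 with a technical SD of 0.08, and it ranked 18 from the lowest of 15495 genes. Some keratins of basal and stratified epithelium differed in the opposite direction, with Krt5 at 5.87 and Krt15 at 4.59, while Krt10 was at 0.04 and Krt4 was not well above background on either array. The part of such epithelium in the Krt79 signal was not tested. Fabp1 is a fatty acid binding protein abundant in liver and gut and present in alveolar macrophages. It read 718 and 299, a log2 difference of -1.41 with a technical SD of 0.09, and it ranked 72 from the lowest. Liver and gut markers mostly differed in the opposite direction to Fabp1. By the mean of their probes, 5 of the 6 measured passed 1.5-fold upward and 0 downward. Albumin (Alb) was at 1.79, Ahsg at 2.41, Serpina1a at 2.87 and the gut gene Fabp2 at 0.80. The probes of Apoa2, also among the 5, disagreed in sign (-0.07 and 1.79). The gut marker Vil1 was at -0.55 and did not pass 1.5-fold. Ttr was well above background in the transgenic lung alone, and Apoa1 on neither array. The part of liver or gut transcripts in the Fabp1 signal was not tested.

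Atp6v0d2 encodes a subunit of the membrane sector of the vacuolar proton pump, found in macrophages, osteoclasts and kidney, which acidifies lysosomes. Its brighter probe read 3926 and 4841 in the C57BL6/N and transgenic lung, and its dimmer probe 739 and 981. They differed by 0.15 and 0.26, with a mean of 0.21 and a technical SD of 0.06. Ear2, a secreted ribonuclease of the eosinophil-associated family, had the highest difference of the 9 members. It read 30534 and 45001, a log2 difference of 0.41 with a technical SD of 0.08. Of all measured genes, 15.5% were higher. The genes of this family are closely related, so the Ear2 probe may also report other copies, which was not tested.

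For 7 of the members, all but Krt79 and Plet1, genes of the same family were compared. Among 7 measured Siglecs other than Siglecf, 0 were at least 1.5-fold lower and 1 was higher, the macrophage receptor Siglec1 at 0.84, and the median was 0.01. Of 20 measured scavenger and lectin receptors, 9 were higher and 1 lower, with a median of 0.49. Msr1, a class A scavenger receptor like Marco, was at 1.02 and the lectins Clec4e and Clec10a at 1.63 and 1.18, while Cd209a was at -0.74. Beta-2 integrin partners had 1 of 4 higher, the common chain Itgb2 at 0.77, and 0 lower. Among 6 measured fatty acid binding proteins, 4 were higher and 1 lower. Fabp4, which fat cells share, was at 2.32, Fabp7 at 1.42 and Fabp12 at -0.84. Of 22 measured subunits of the vacuolar pump, 3 were higher and 0 lower (median 0.02), and Atp6v0d1, the widely expressed counterpart of Atp6v0d2, was at 0.81. In the ribonuclease A family 0 of 9 were higher and 1 lower, Ang4 at -1.78, and the median was 0.15. Its members ranged widely. Ear1, Ear10 and Rnase2a were at 0.57, 0.53 and 0.47, whereas Ear6 was at 0.00, Rnase4 at -0.11 and Rnase6 at -0.55.

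**Figure D3:**
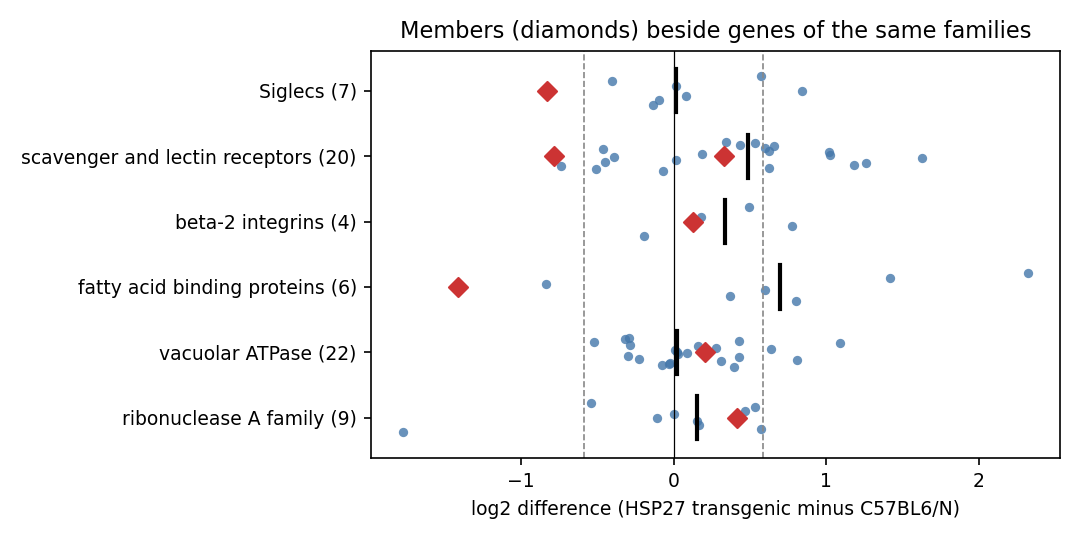
Log2 difference (HSP27 transgenic minus C57BL6/N, 1 array each) of measured genes of 6 families (points, with the number measured in brackets), the family median without the member (black line) and the members (red diamonds). Siglecf, Marco and Fabp1 lie below every point of their family, and the diamonds of Itgax, Mrc1, Atp6v0d2 and Ear2 lie among the points.

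Other genes known from alveolar macrophages were mostly near the level of the C57BL6/N lung or above it. Of 15 such genes not typical of fat, 3 passed 1.5-fold upward and 1 downward (median 0.34). These counts depended on the scaling, with 6 upward under cyclic loess, and 5 upward and 0 downward with scaling by the median. With normexp background correction 0 passed downward. The sterol exporter Abcg1 was at -0.63 and the carbonic anhydrase Car4, which did not pass 1.5-fold, at -0.47. Chil3, a chitinase-like lectin abundant in these cells, was at -0.02, and Ear1 at 0.57. Cd200r1, Siglec1 and the interleukin-1 receptor antagonist Il1rn were at 0.75, 0.84 and 0.97. Of 7 alveolar macrophage genes that fat cells also make, 4 were higher and 0 lower. Lipoprotein lipase (Lpl) was at 0.74 and the lipid droplet protein Cidec at 0.63. These genes stood on an array with raised fat cell markers, so no macrophage level can be read from them.

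Signals that alveolar macrophages depend on were measured too. Of 18 genes of the GM-CSF, PPAR-gamma and TGF-beta pathways, 4 passed 1.5-fold upward and 1 downward (median 0.11). Csf2, the gene of GM-CSF, was at 0.11 and its target Pparg at 0.13. Fat cells also make Pparg, so no macrophage level can be read from it here. The receptor chains Csf2ra and Csf2rb were at 0.63 and 0.84, and the related Csf2rb2 at 1.05. Spi1, which encodes PU.1, was at 1.11 with a signal of 56.3 and 135. The signal transducer Stat5b was at -0.78, from probes at -1.19 and -0.37. The transcription factors Cebpa and Bhlhe40 were at 0.11 and 0.43, Tgfb1 at 0.44, and the probes of Bhlhe41 disagreed in sign (mean -0.02). Of 11 genes of lipid uptake and efflux, 4 were higher and 1 lower (Abcg1), with Apoe at 0.93. Lpl, 1 of the 4 higher genes, is also made by fat cells, and the same limit holds for it.

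Most genes shared by macrophages of any origin had higher signal in the transgenic sample. Of 13 of them that were measured, 9 passed 1.5-fold upward and 0 downward (median 0.70). Cd68 had no matched probe. The Fc receptors Fcgr3 and Fcgr1 were at 1.38 and 1.13, the colony-stimulating factor receptor Csf1r at 0.73, the surface receptor Adgre1 at 0.70, and the efferocytosis receptor Mertk at -0.34. The highest member, Ear2 at 0.41, lay below 9 of these 13 genes. Of 13 measured interstitial macrophage markers 7 were higher and 1 lower. The complement subunits C1qb and C1qa were at 2.41 and 1.74 and Folr2 at 1.42, whereas Lyve1 was at -0.66. Monocyte markers had 4 of 10 higher and 0 lower, with Plac8 at 1.42 and the chemokine receptor Ccr2 at 0.83. Of 12 genes of macrophages in fibrotic lung, 7 were higher and 0 lower, with Arg1 at 2.35 and osteopontin (Spp1) at 2.29. Some lists share genes, and the raised cardiac, fat and basal cell markers stood on the same array.

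**Figure D4:**
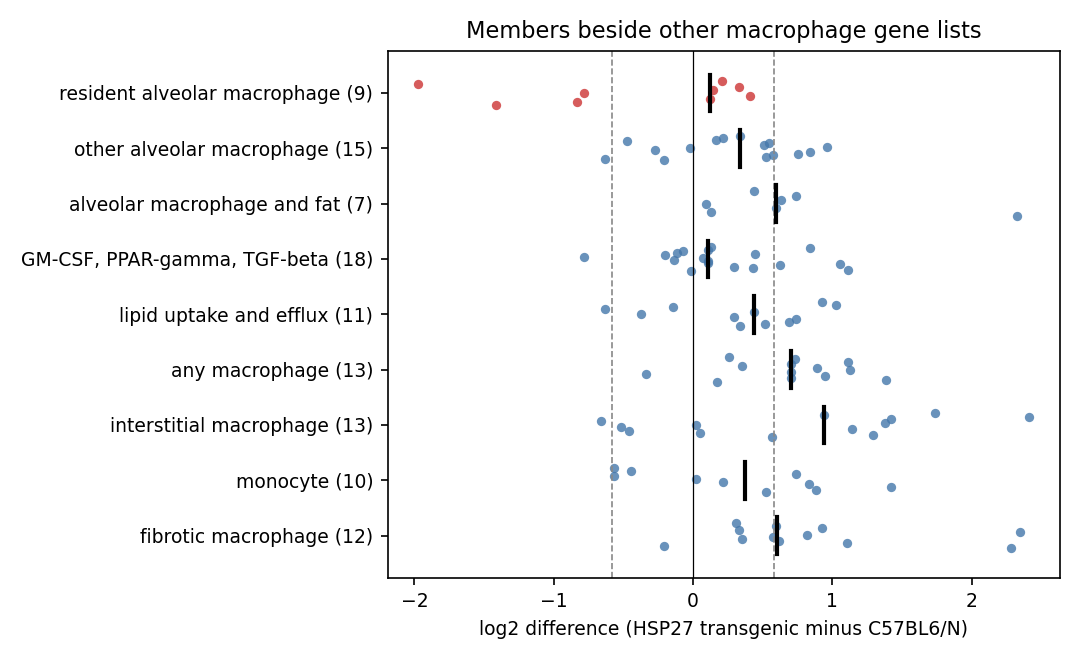
Log2 difference (HSP27 transgenic minus C57BL6/N, 1 array each) of measured genes in 9 lists (points, with the number measured in brackets) and their medians (black lines), with dashed lines at 1.5-fold. The 9 members (red) lie between -1.97 and 0.41, and the median of genes of any macrophage lies at 0.70.

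Cells other than alveolar macrophages also express some of the members. Eosinophils make Siglecf and ribonucleases of the Ear family, yet their granule genes Epx, Prg2 and Prg3 and the receptor Ccr3 were not well above background on either array, with signals of 2.71 to 12.6 in the C57BL6/N lung and 2.85 to 12.3 in the transgenic lung. Il5ra was the only eosinophil marker measured on both, at -0.36. The lipoxygenase Alox15, which some macrophages also make, went the other way: it was well above background in the transgenic lung alone (2.45 and 39.4), at least 2.98-fold higher. Dendritic cells make Itgax, and of 10 of their markers 2 passed 1.5-fold upward and 1 downward, with Ccl17 at 0.88, Batf3 at 0.75 and a median of -0.03. The probes of Flt3 disagreed in sign (mean -0.14). Lymphatic endothelium makes Mrc1. Its defining factor Prox1 was not well above background on either array, and of 4 measured markers 0 were higher and 1 lower, Lyve1 at -0.66. Osteoclast genes, some of which macrophages of fibrotic lung also make, had 2 of 8 higher and 0 lower, with Dcstamp at 0.81 and Acp5 at 0.68. The part of these cells in the members' differences was not tested.

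The 4 lower members were lower under all 9 alternative ways of processing the arrays. Krt79 ranged from -1.97 to -1.88, Fabp1 from -1.41 to -1.20, Siglecf from -0.92 to -0.73 and Marco from -0.79 to -0.73. Of the other members Ear2 reached 0.52 with normexp background correction, still below 1.5-fold (0.58 on the log2 scale).

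**Figure D5:**
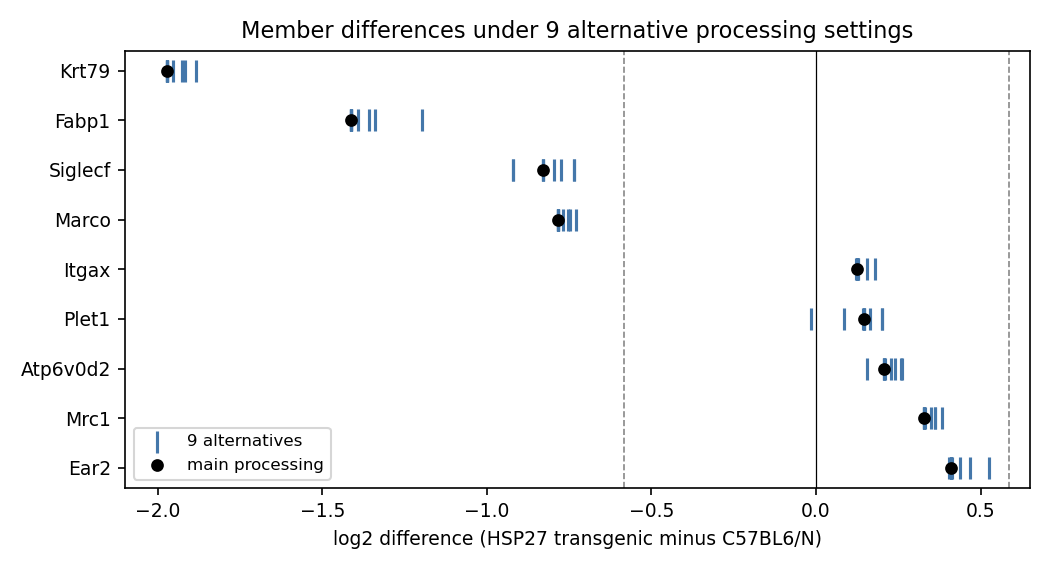
Log2 difference (HSP27 transgenic minus C57BL6/N, 1 array each) of the 9 genes under the main processing (dots) and 9 alternatives (ticks), with dashed lines at 1.5-fold. The 4 lower genes stay past 1.5-fold under each alternative, and of the others Plet1 alone crosses 0, at -0.01 with the brightest probe.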

How the data were processed

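Total RNA of whole lung was extracted with Trizol, and amplified RNA was labelled with Cy3, per the labels' protocols. The deposited scanner files give the Cy3 intensity of every spot, written by Agilent Feature Extraction 11.5.1.1 per the file headers, with background subtracted and trends removed but no normalization between arrays. The flags used (saturated, outlier, well above background) carry no unit and are other deposited columns, per the file headers. The deposited table of the series is a linear intensity too: for each array it equalled the processed signal within 0.1% for 39030 of 39030 probes with 1 spot, and its columns have medians of 111 and 118. It is uncentred, with 1 column per array.

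After removal of control and outlier spots, the spots of a probe were averaged on the log2 scale, and the array's 75th percentile over non-control probes (signals of 1287 and 1426) was subtracted. On each array a usable probe had no saturation and 50% or more of its spots well above background. That left 26387 probes. A gene's value is the mean over its usable probes. Probes were named by matching their RefSeq accession, without version, to a gene table of GRCm38.p6, which gave a symbol for 27495 probes (69.7%). The array headers name mm9, so the table served for names alone. Of all probes, 69.2% (C57BL6/N) and 69.4% (transgenic) were well above background, down to signals of 11.9 and 12.5. Precision is limited by having 2 arrays. The members and the 28 gene lists (the members among them) were chosen with earlier results of these data known. Named beside the members are fixed genes and up to 3 highest and 3 lowest of a list past 1.5-fold with probes of 1 direction. A few others were chosen after their values were seen. They are Ear6, Ear10, Rnase2a, Rnase4, Rnase6, Il5ra, Krt10, Vil1, Apoa2, Trp63 and markers not well above background on 1 or both arrays. No gene is named for likeness of pattern, since 2 arrays give 1 difference per gene. The steps were tested on simulated data. Analyses used Python 3.11.15, numpy 2.4.6, pandas 2.3.3, matplotlib 3.10.9, R 4.3.3 and limma 3.58.1.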

Additional observations from a re-analysis of the deposited data

How the results depend on the processing

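The 9 alternatives were normexp background correction (offset 50, on median signals, leaving out 7 spots whose local background reached their signal), cyclic loess, quantile normalization or scaling by the median, a stricter filter on dim probes or none, keeping outlier spots, taking the brightest probe of a gene, and starting from the deposited table. The count of members at least 1.5-fold lower was 4 and of members higher 0 under each of them. At a 2-fold threshold the counts were 2 and 0. The median of the members was -0.015 with the brightest probe per gene, against 0.12, as Plet1 is then read by 1 probe. Over all genes, 1582 were at least 1.5-fold higher and 1287 lower. These counts were 2526 and 2080 when dim probes were kept, 980 and 683 after normexp, and 591 and 289 at 2-fold. Of the genes past 1.5-fold, 55.1% were higher, and 66.5% with cyclic loess (1931 higher, 971 lower). No member difference and no list median past 1.5-fold turned its sign. Single genes outside the members were not followed across the alternatives. The median over all genes stayed between -0.06 and 0.03. No paired analysis was possible because there is 1 array per group, and for the same reason no array could be left out. Counts in several lists moved as well. Higher Siglecs ran from 0 to 2 (1 in the main processing) and lower Siglecs from 0 to 1 (0), higher ribonucleases from 0 to 2 (0), and lower genes of lipid uptake and efflux from 0 to 1 (1). Dim probes limit several values, among them those of Il1rn, Ngp, Fabp7, Spi1 and the second probe of Siglecf.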

Other observations

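Neutrophil and cell cycle genes were also compared. Of 7 measured neutrophil markers, 1 was at least 1.5-fold higher and 2 were lower in the transgenic lung. The collagenase Mmp8 was at 1.22, the chemokine receptor Cxcr2 at -1.28 and the granule protein Ngp at -0.59, with a median of -0.27. Ngp was dim (28.2 and 20.8) and lay at the threshold, and the count of lower markers was 1 instead of 2 under cyclic loess, median scaling, quantile normalization, normexp and the stricter filter. Of 12 measured cell cycle genes, 0 were higher and 1 was lower, the proliferation marker Mki67 at -0.77 over 2 probes, with a median of -0.17.

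Among 6 measured liver and gut transcripts, 5 were at least 1.5-fold higher by the mean of their probes, with Serpina1a at 2.87 and the gut gene Fabp2 at 0.80. Apoa2 is among the 5 although its probes disagreed in sign.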
